A study of Mus musculus with 8 samples.

Results

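The 9 genes described here encode regulators of the late meiotic and spermatid program: Crem, Fhl5, Kif17, Rfx2, Rfx3, Sox30, Sox5, Tbpl1 and Mybl1. They were chosen by gene symbol, and each symbol matched 1 of the 54532 genes in the table. Their transcripts were measured by RNA-seq in spermatocytes of C57BL/6J mice, separated by sedimentation in an albumin gradient into pachytene (P) and leptotene or zygotene (L/Z) fractions whose purity was judged by microscopy. MFN2 cKO mice carried Mfn2 loxp/loxp with Stra8-Cre, and the mice labelled MFN2 WT carried Mfn2 loxp/loxp without Cre. Per the study's methods, a control could be fl/fl or fl/+ and was a littermate, and the Stra8 promoter drives Cre from early spermatogonia, so cells before that point keep the gene. Mice were taken at postnatal day (PD) 24 or at PD 52, in adulthood. Each of the 8 combinations of stage, genotype and age had 1 library, so no group had a replicate.

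In spermatogenesis, a wave of transcription in pachytene spermatocytes prepares meiotic division, and another in round spermatids builds the acrosome, the tail and the compacted nucleus. MYBL1 (A-MYB) acts in pachytene cells, where it drives meiotic and piRNA pathway genes. CREM binds cyclic AMP response elements of spermatid genes, FHL5 (ACT) is its testis coactivator, and a testis form of the kinesin KIF17 carries FHL5 out of the nucleus. RFX2 and RFX3 bind X-box sites of cilium and sperm tail genes, SOX30 and SOX5 are HMG-box factors of spermatids, and TBPL1 (TRF2) is a relative of the TATA-binding protein that spermatids need.

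The windows before the transcription starts of 4 of these genes are printed because they hold elements of the kind that these regulators bind, in genes whose transcripts differed widely (Fhl5, Kif17) or little (Rfx2, Tbpl1) between libraries. RefSeq starts on GRCm38.p6 were used for 7 of the 9 genes, in 8 entries. No entry was found for Mybl1. Crem was left out of the search, so whether its window holds any of these elements was not tested. The 250 bases before each start were searched on both strands for TGACGTCA (the cyclic AMP response element), TGACG (its shorter form, also counted inside the full element), GTTGCC (an arm of the X-box), AACAAT (a SOX site) and AACTG (the core of a MYB site). Capitals mark matches. The windows lay at chr4:138262001-138262250 on the plus strand for Kif17, and on the minus strand at chr17:56831009-56831258 for Rfx2, chr4:25242853-25243102 for Fhl5 and chr10:22731448-22731697 for Tbpl1.
Kif17: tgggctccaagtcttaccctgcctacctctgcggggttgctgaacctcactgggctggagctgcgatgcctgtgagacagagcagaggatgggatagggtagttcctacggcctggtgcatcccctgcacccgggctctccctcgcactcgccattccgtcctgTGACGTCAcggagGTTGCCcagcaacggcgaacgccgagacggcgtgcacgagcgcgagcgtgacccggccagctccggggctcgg
Rfx2: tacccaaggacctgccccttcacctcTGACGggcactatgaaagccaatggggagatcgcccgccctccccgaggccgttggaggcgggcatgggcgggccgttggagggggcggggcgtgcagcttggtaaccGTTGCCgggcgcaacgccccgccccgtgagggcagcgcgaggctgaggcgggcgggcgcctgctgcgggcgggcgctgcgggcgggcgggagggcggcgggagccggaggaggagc
Fhl5: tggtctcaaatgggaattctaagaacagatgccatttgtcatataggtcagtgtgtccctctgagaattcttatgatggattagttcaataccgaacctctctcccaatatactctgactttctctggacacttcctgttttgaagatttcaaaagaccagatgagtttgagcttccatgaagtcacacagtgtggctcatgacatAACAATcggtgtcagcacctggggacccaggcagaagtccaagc
Tbpl1: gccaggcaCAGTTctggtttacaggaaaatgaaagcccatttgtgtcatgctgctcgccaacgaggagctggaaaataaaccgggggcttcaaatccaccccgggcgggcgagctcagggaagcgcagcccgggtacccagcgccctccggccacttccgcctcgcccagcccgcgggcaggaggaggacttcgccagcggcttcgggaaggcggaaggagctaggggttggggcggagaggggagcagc

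The Kif17 window held the full cyclic AMP response element, starting 86 bases before an internal start of the gene, and an X-box arm 73 bases before it. The full element was present in 1.55% of the 32851 windows of the same length. The Rfx2 window held the shorter element 224 bases and an X-box arm 116 bases before the start. TGACG occurred in 17.8% and GTTGCC in 10.4% of all windows. The Fhl5 window shown held AACAAT, found in 9.42% of windows, and the Tbpl1 window held AACTG, found in 39.1%. A second Fhl5 window held AACTG and the Sox5 window an X-box arm, whereas the windows of Sox30 and Rfx3 matched none of these letters. A match is a description of the sequence and not a site shown to be bound.

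All 9 genes had values above 1 FPKM, a level scaled by transcript length and library size, in every library. By the median over the 8 libraries, Tbpl1 was highest at 126 FPKM, followed by Rfx2 at 69.8, Kif17 at 54.2, Fhl5 at 44.8, Sox30 at 43.4 and Crem at 29.0 FPKM. Mybl1, Sox5 and Rfx3 were lowest, with medians of 11.6, 7.14 and 3.12 FPKM. The ranges of neighbours in this order overlapped, with the exception of Tbpl1, whose lowest library (91.7 FPKM) was above the highest of Rfx2 (89.0 FPKM). The spread differed widely among the genes. Between its lowest and highest library Fhl5 differed 49.8-fold, Sox5 15.8-fold and Kif17 12.9-fold, against 1.69-fold for Tbpl1 and 2.10-fold for Rfx2. The lowest count behind any of these values was 71 reads, for Fhl5, out of 14340665 to 20379950 reads per library recovered from the table.

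**Figure D1:**
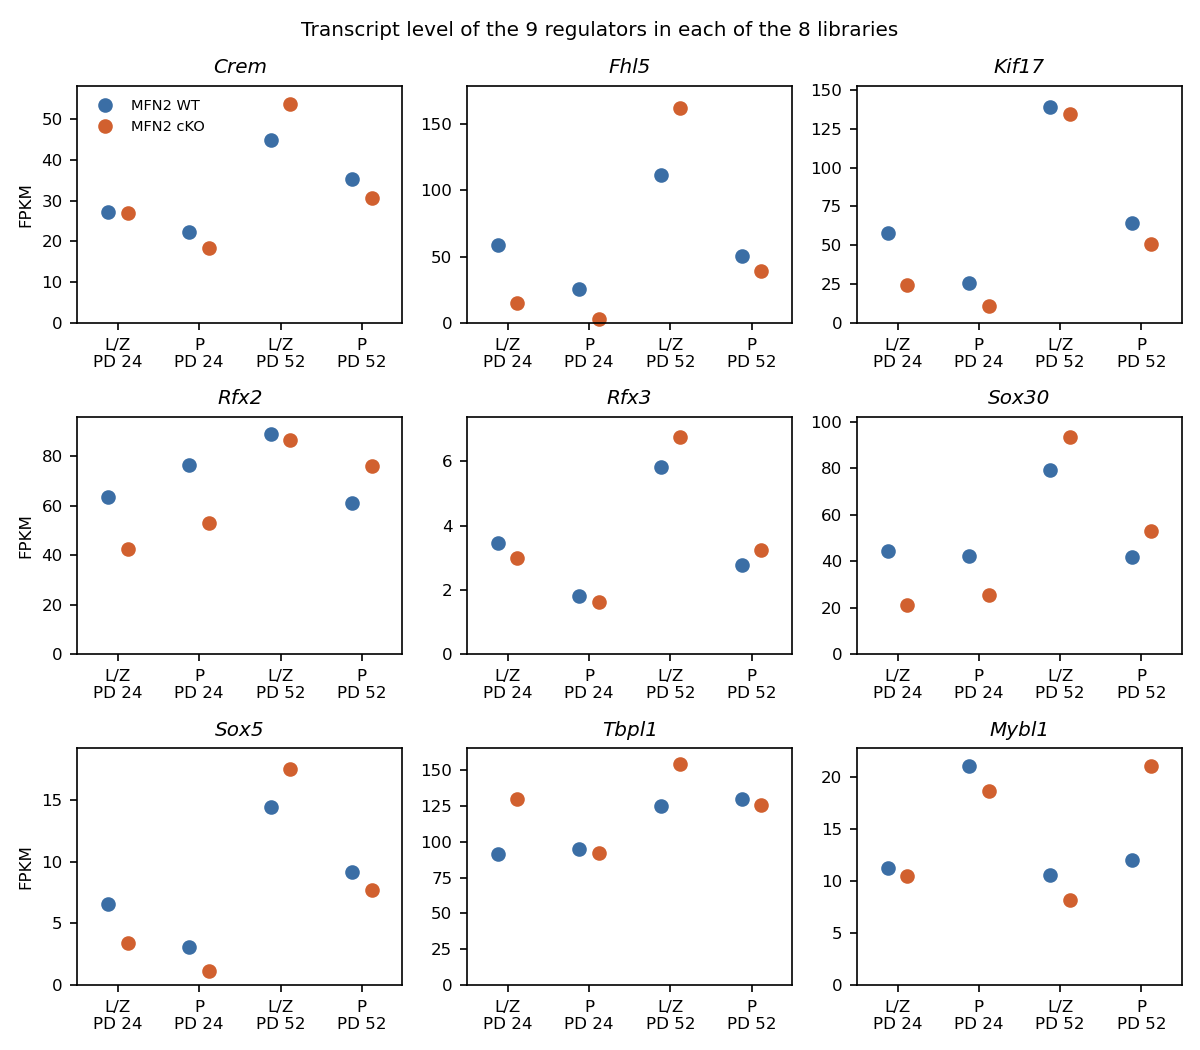
FPKM (linear axis from 0) of the 9 regulators in the 8 libraries, by stage and age, with MFN2 WT in blue and MFN2 cKO in orange and 1 point per library. Fhl5, Kif17 and Sox5 were highest in the L/Z fractions at PD 52, Mybl1 was higher in P than in L/Z, and Tbpl1 stayed within 91.7 to 155 FPKM.

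Germ cell markers were read beside these levels, since a fraction can hold other cells. The sum of 10 spermatid markers, which include Acrv1 and Spaca1 of the acrosome, was 687 FPKM in MFN2 WT and 388 in MFN2 cKO L/Z cells at PD 24, 420 and 208 in P cells at PD 24, 1562 and 2045 in L/Z cells at PD 52, and 788 and 632 in P cells at PD 52. Spermatid transcripts were therefore present in all 8 fractions labelled as spermatocytes, and they were more abundant in L/Z than in P at each age and genotype. Odf2 was the largest part of this sum in every library. The sum of 10 leptotene and zygotene markers, most of it from Stag3 and Sycp2, was 158 to 198 FPKM in L/Z and 197 to 264 FPKM in P. At PD 24, 4 genes of this list were lower in P at an unadjusted p under 0.05 by limma. They were Dmc1 (-1.18), Ugt8a (-1.08), Prdm9 (-0.77) and Gm960 (-0.60) on the log2(FPKM + 1) scale. Spo11 (1.21) and Sycp2 (1.07) were higher in P at that threshold, which 26.4% of all genes met in either direction. None of the 10 passed the adjusted threshold, beside 4.36% of all genes, and limma-voom called 3, beside 10.9%. Their median was -0.51, beside -0.04 over all genes. At PD 52, 0 were lower and 2 higher at an unadjusted p under 0.05 by limma, beside 30.8% of all genes, with a median of -0.16. In bulk fractions, fewer cells of a type and less RNA per cell cannot be told apart, and the part of spermatids in the levels that follow was not tested.

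Crem, on chromosome 18 (3266048 to 3337748, minus strand), is the activator at the centre of this program. Its level was 27.3 FPKM in MFN2 WT and 27.0 in MFN2 cKO L/Z cells at PD 24, 22.3 and 18.4 in P cells at PD 24, 44.8 and 53.6 in L/Z cells at PD 52, and 35.3 and 30.7 in P cells at PD 52. All 4 libraries at PD 52 were above all 4 at PD 24, and within each age L/Z was above P. The difference between genotypes was small at every stage, with a mean of -0.06 on the log2(FPKM + 1) scale (SE 0.16). The annotation lists 39 transcripts of Crem, among them activator and repressor forms, and a value per gene cannot separate them.

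Fhl5, on chromosome 4 (25199908 to 25242876, minus strand), varied most. It was at 58.6 FPKM in MFN2 WT and 15.4 in MFN2 cKO L/Z cells at PD 24, at 25.8 and 3.26 in P cells at PD 24, at 112 and 162 in L/Z cells at PD 52, and at 50.6 and 39.0 in P cells at PD 52. At PD 24 both MFN2 cKO libraries were below both MFN2 WT libraries, with P cells at 12.6% and L/Z cells at 26.3% of the MFN2 WT value. At PD 52 P cells were at 77.1% and L/Z cells at 145%, so the coactivator was higher in MFN2 cKO than in MFN2 WT in 1 of the 4 pairs. On the log2(FPKM + 1) scale the differences at PD 24 were -2.65 in P (exact 95% counting interval -2.94 to -2.37) and -1.86 in L/Z (-2.03 to -1.69). These intervals cover counting error only.

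Kif17, on chromosome 4 (138250435 to 138301967, plus strand), had a similar order of libraries at higher counts. Its level was 57.8 FPKM in MFN2 WT and 24.5 in MFN2 cKO L/Z cells at PD 24, 26.0 and 10.8 in P cells at PD 24, 139 and 134 in L/Z cells at PD 52, and 64.2 and 50.7 in P cells at PD 52. The MFN2 cKO level at PD 24 was 41.5% of MFN2 WT in P and 42.4% in L/Z, whereas at PD 52 it was 78.9% in P and 96.6% in L/Z. The sign in the L/Z pair at PD 52 turned under a further scaling of the libraries, from -0.05 to 0.03 on the log2(FPKM + 1) scale. The printed Kif17 window belongs to a start inside the gene, and the table does not tell transcripts from the internal start from the longer ones.

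As genes linked to CREM and ACT, 12 were taken as a list, with protamines (Prm1, Prm2), transition proteins (Tnp1, Tnp2), tail proteins (Odf1, Smcp, Akap4) and germ cell enzymes (Ace, Ldhc, Gapdhs, Pgk2, and the chaperone Hspa1l). Whether either regulator acts on these genes was not tested. At PD 24, 10 of the 12 in P and 8 in L/Z were at least 2-fold lower in MFN2 cKO, beside 6.29% and 7.03% of all genes above 1 FPKM in the pair, with median differences of -2.17 and -1.63 on the log2(FPKM + 1) scale beside -0.10 and 0.08 over all genes. At PD 52, 3 of the 12 in P were at least 2-fold lower, beside 5.78%, and 3 in L/Z at least 2-fold higher, beside 4.83%, with medians of -0.49 and 0.53. Prm1, which packs sperm DNA, was at 218 FPKM in MFN2 WT and 3.30 in MFN2 cKO P cells at PD 24, and at 424 and 9.48 in L/Z cells. At PD 52 Prm1 was at 1120 FPKM in MFN2 WT and 384 in MFN2 cKO P cells, and at 2081 and 4717 in L/Z cells. Tnp2, which replaces histones before protamines do, was at 411 and 15.3 FPKM in P cells and at 778 and 17.9 in L/Z cells at PD 24. In the same L/Z cells at PD 24, Crem itself was at 98.8% of MFN2 WT and Fhl5 at 26.3%. Ldhc, the germ cell lactate dehydrogenase that is already transcribed in spermatocytes, was at 80.1% in P and 108% in L/Z. None of the 12 passed limma's adjusted threshold of 0.05 for the genotype effect, where 6 had an unadjusted p under 0.05, beside 6.99% of all genes, and limma-voom called 0, beside 0.524%. For the genotype by age interaction 0 passed, 10 had an unadjusted p under 0.05, all higher, beside 12.2% of all genes, and limma-voom called 7, beside 1.96%.

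**Figure D2:**
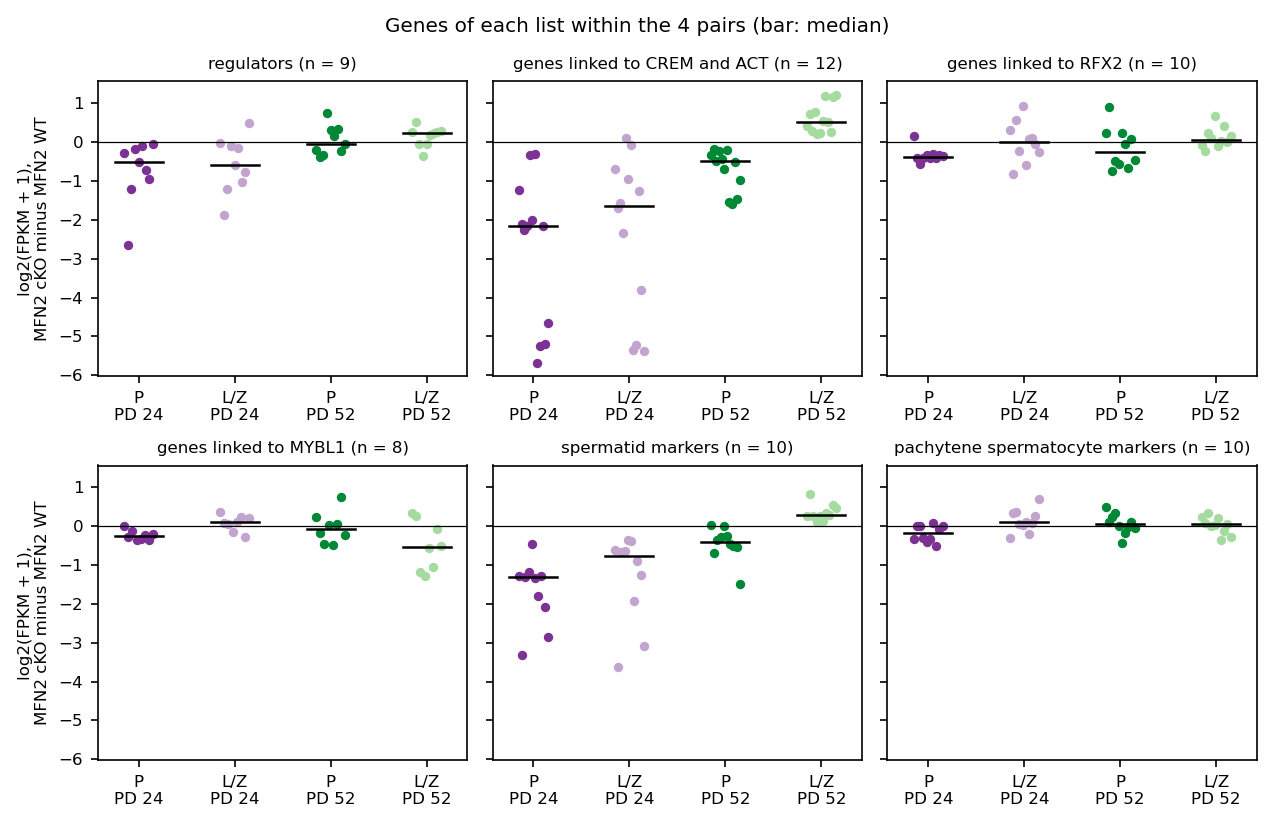
Difference between MFN2 cKO and MFN2 WT within each of the 4 pairs on the log2(FPKM + 1) scale, for the regulators, the genes linked to CREM and ACT, RFX2 and MYBL1, and 2 marker lists, with 1 point per gene above the FPKM filter and a bar at the median. The genes linked to CREM and ACT and the spermatid markers lay below 0 in P at PD 24 and above 0 in L/Z at PD 52, while the medians of the pachytene markers lay between -0.18 and 0.10.

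Rfx2, on chromosome 17 (56775897 to 56831013, minus strand), was expressed at similar levels in both fractions. It was at 63.4 FPKM in MFN2 WT and 42.3 in MFN2 cKO L/Z cells at PD 24, at 76.5 and 53.1 in P cells at PD 24, at 89.0 and 86.5 in L/Z cells at PD 52, and at 61.0 and 76.2 in P cells at PD 52. MFN2 cKO was at 66.7% and 69.4% of MFN2 WT in L/Z and P at PD 24, and at 97.2% and 125% at PD 52. P was above L/Z in both genotypes at PD 24 and below it in both at PD 52. The test of that difference, the stage by age interaction, was -0.65 (SE 0.40, limma adjusted p = 0.841).

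Rfx3, on chromosome 19 (27761721 to 28011166, minus strand), was the least abundant of the 9. Its level was 3.45 FPKM in MFN2 WT and 2.99 in MFN2 cKO L/Z cells at PD 24, 1.80 and 1.63 in P cells at PD 24, 5.83 and 6.77 in L/Z cells at PD 52, and 2.78 and 3.25 in P cells at PD 52. L/Z was above P in each of the 4 comparisons within genotype and age. The MFN2 cKO value was 86.7% to 90.6% of MFN2 WT at PD 24 and 116% to 117% at PD 52.

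The 10 genes linked to RFX2 included intraflagellar transport and axoneme genes (Ift172, Ift88, Dnah1, Tekt4) and Foxj1, a regulator of motile cilia. None was at least 2-fold different in any pair on the log2(FPKM + 1) scale. Hist1h1t, the testis linker histone, was at 1.45 and 3.65 FPKM in MFN2 WT and MFN2 cKO L/Z cells at PD 24, a difference of 0.92 on that scale and of 1.33 as a log2 ratio without a pseudocount. Their median difference in MFN2 cKO was -0.38 in P and 0.02 in L/Z at PD 24, and -0.26 in P and 0.07 in L/Z at PD 52. For the genotype effect 0 of 10 passed limma's adjusted threshold, beside 0.085% of all genes. At an unadjusted p under 0.05 by limma there were 0, beside 6.99%, and limma-voom called 0, beside 0.524%. Foxj1 was lower in P than in L/Z at PD 24 (-1.43 on the log2(FPKM + 1) scale, limma adjusted p = 0.0323). Dnah1, a dynein heavy chain, had the largest genotype by age interaction of the list at 0.96, with 42.1 and 31.6 FPKM in MFN2 WT and MFN2 cKO P cells at PD 24 and 17.2 and 33.2 at PD 52. Ift172 was at 96.2 and 72.4 FPKM in P cells at PD 24 and at 70.4 and 83.5 at PD 52. Both genes thus had the order seen for Rfx2 in P cells, lower in MFN2 cKO at PD 24 and higher at PD 52. Most of the list did not have it. In P at PD 52, 6 of the 10 were lower in MFN2 cKO and 4 higher, with Dync2li1 at -0.74 and Meig1 at -0.65.

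Sox30, on chromosome 11 (45980310 to 46017994, plus strand), had 1 annotated transcript and no overlapping gene. It was at 44.6 FPKM in MFN2 WT and 21.3 in MFN2 cKO L/Z cells at PD 24, at 42.3 and 25.4 in P cells at PD 24, at 79.5 and 93.6 in L/Z cells at PD 52, and at 41.9 and 52.9 in P cells at PD 52. MFN2 cKO was below MFN2 WT in both pairs at PD 24, at 47.8% in L/Z and 60.1% in P, and above it in both pairs at PD 52, at 118% and 126%. In MFN2 WT P cells the level was nearly the same at both ages, while in MFN2 WT L/Z cells it was higher at PD 52.

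Sox5, on chromosome 6 (143828425 to 144781977, minus strand), is transcribed in spermatids from an internal start. Its level was 6.57 FPKM in MFN2 WT and 3.42 in MFN2 cKO L/Z cells at PD 24, 3.09 and 1.11 in P cells at PD 24, 14.5 and 17.5 in L/Z cells at PD 52, and 9.15 and 7.72 in P cells at PD 52. All PD 52 libraries were above all PD 24 libraries. MFN2 cKO was at 35.9% of MFN2 WT in P cells and at 52.1% in L/Z cells at PD 24. The P difference at PD 24 was -0.96 with a pseudocount of 1 and -1.48 as a log2 ratio of FPKM with none, so that the call of at least 2-fold depended on the pseudocount. The gene has 14 annotated transcripts and 7 overlapping genes in the table. One of these, the antisense gene Sox5os3, ranged from 0 to 12.4 FPKM and was also highest in MFN2 cKO L/Z cells at PD 52, and reads of the 2 strands cannot be told apart without a strand-marking library.

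Tbpl1, on chromosome 10 (22703879 to 22731938, minus strand), was the most abundant and least variable regulator. It was at 91.7 FPKM in MFN2 WT and 130.2 in MFN2 cKO L/Z cells at PD 24, at 95.1 and 92.6 in P cells at PD 24, at 125 and 155 in L/Z cells at PD 52, and at 130.3 and 126 in P cells at PD 52. In L/Z, MFN2 cKO was at 142% of MFN2 WT at PD 24 and 123% at PD 52, whereas in P it was at 97.4% and 96.6%. Both P differences had counting intervals that held 0, and both changed sign under a further scaling of the libraries, from -0.04 to 0.00017 at PD 24 and from -0.05 to 0.05 at PD 52. Tbpl1 was the exception among the 9 genes at PD 24: the other 8 were lower in MFN2 cKO in both pairs. Gtf2a1l, the testis form of a TFIIA subunit that binds TBPL1, was at 177 and 191 FPKM in L/Z and at 148 and 115 in P cells at PD 24, and at 244 and 275 in L/Z and 202 and 188 in P cells at PD 52.

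Mybl1, on chromosome 1 (9667415 to 9700209, minus strand), differed from the others in its stage. Its level was 11.3 FPKM in MFN2 WT and 10.5 in MFN2 cKO L/Z cells at PD 24, 21.0 and 18.7 in P cells at PD 24, 10.6 and 8.17 in L/Z cells at PD 52, and 12 and 21.1 in P cells at PD 52. All 4 P libraries were above all 4 L/Z libraries, as for 10% of the 21175 genes tested, and MFN2 WT P cells at PD 52 were the lowest of the P libraries. P exceeded L/Z by 0.81 (SE 0.31, limma adjusted p = 0.156) at PD 24 and by 0.71 (SE 0.31, limma adjusted p = 0.170) at PD 52 on the log2(FPKM + 1) scale.

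Of 8 genes linked to MYBL1, Piwil1, Pld6 and Tdrd5 of the piRNA pathway passed limma's adjusted threshold for the stage effect at both ages, all higher in P, beside 4.36% of all genes at PD 24 and 0.822% at PD 52. No gene passed for either stage effect in a fit without any 1 library, nor at PD 24 with a pseudocount of 0.1. Piwil1, the pachytene PIWI protein, was at 278 and 218 FPKM in P against 22.2 and 19.9 in L/Z at PD 24, and at 168 and 172 in P against 40.5 and 16 in L/Z at PD 52. The stage effects of Piwil1 were 3.49 (limma adjusted p = 0.0212) and 2.69 (limma adjusted p = 0.0406). Pld6, a mitochondrial nuclease of piRNA processing, differed by 2.02 and 1.92, and Tdrd5, a Tudor protein, by 2.62 and 2.35. No gene of this list passed limma's adjusted threshold for the genotype effect, beside 0.085% of all genes. At an unadjusted p under 0.05 by limma there were 0, beside 6.99%, and limma-voom called 0, beside 0.524%. The median of the list was -0.21 beside -0.04 over all genes. In L/Z cells at PD 52, 3 of the 8 were at least 2-fold lower in MFN2 cKO, Piwil1 among them, beside 3.12% of all genes above 1 FPKM in the pair, and Mov10l1, a helicase of the pathway, was at 23.6 FPKM in MFN2 WT and 9.99 in MFN2 cKO. Tdrd6, another Tudor protein, was at 139 FPKM in MFN2 WT and 235 in MFN2 cKO P cells at PD 52, the pair in which Mybl1 was also higher in MFN2 cKO. The list as a whole was split in that pair, with 4 of the 8 lower and 4 higher in MFN2 cKO and a median of -0.07.

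Across the pairs, 2 regulators (Fhl5, Kif17) in P and 3 (Fhl5, Kif17, Sox30) in L/Z were at least 2-fold lower in MFN2 cKO at PD 24, beside 6.29% and 7.03% of all genes above 1 FPKM in the pair. At PD 52 none was, beside 5.78% in P and 3.12% in L/Z. None was at least 2-fold higher in any pair, beside 1.79% and 3.45% of all genes in P and L/Z at PD 24 and 5.21% and 4.83% at PD 52. The median difference of the 9 genes was -0.52 in P and -0.57 in L/Z at PD 24, and -0.05 and 0.23 at PD 52, beside -0.10, 0.08, -0.05 and 0.02 over all genes. Lower values in MFN2 cKO in both pairs at PD 24 were found for 8 of the 9 regulators and for 33.3% of all genes. The counting interval held 0 for 3 of those differences, Crem and Mybl1 in L/Z and Rfx3 in P. A pair holds 1 library of each genotype, so these differences have no replicate check.

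**Figure D3:**
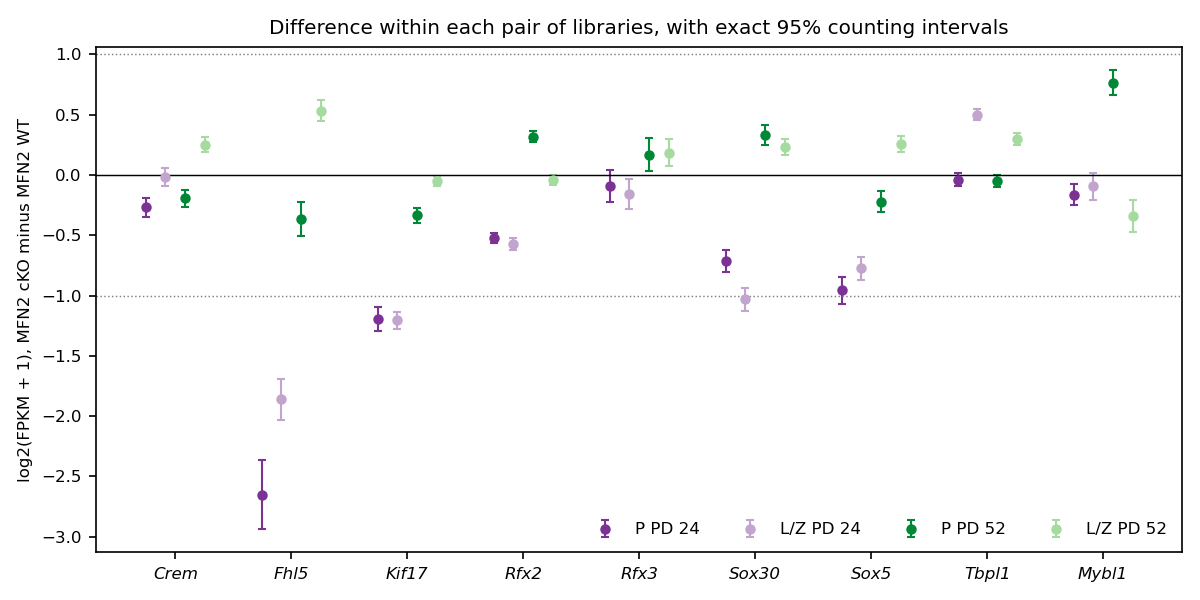
Difference between MFN2 cKO and MFN2 WT on the log2(FPKM + 1) scale for each regulator in each pair, with exact 95% counting intervals and dotted lines at 2-fold. Fhl5 and Kif17 were below the lower line in both pairs at PD 24, Sox30 in L/Z, and no point passed the upper line.

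Over the 4 pairs together, limma with stage and age as blocks gave no regulator past an adjusted p of 0.05 for the genotype effect, where 0.085% of 21175 genes passed. At an unadjusted p under 0.05 it gave 1 of 9, Kif17, beside 6.99% of all genes, and limma-voom on the recovered reads called 0, beside 0.524%. Kif17 differed by -0.70 (SE 0.24, adjusted p = 0.618 by limma) and was lower in MFN2 cKO in 4 of 4 pairs (3 of 4 after the further scaling), and Fhl5 by -1.09 (SE 0.50, adjusted p = 0.745 by limma), lower in 3 of 4. The other 7 genes had mean effects between -0.42 for Sox5 and 0.18 for Tbpl1.

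Whether the genotype effect differed between ages was tested as an interaction. None of the 9 genes passed limma's adjusted threshold, as was the case for 0% of all genes. At an unadjusted p under 0.05 there were 4 of 9 (Fhl5, Sox30, Kif17 and Sox5), beside 12.2% of all genes, each with a larger value at PD 52. Limma-voom called 1, Fhl5, beside 1.96%. The interaction of Fhl5 was 2.34 (SE 0.44, limma adjusted p = 0.160), with adjusted p between 0.0246 and 0.984 over the other settings. It was 1.15 (SE 0.29) for Sox30, 1.01 (SE 0.28) for Kif17, 0.88 (SE 0.31) for Sox5 and 0.68 (SE 0.29) for Rfx2, with adjusted p between 0.226 and 0.431 by limma. Crem, Rfx3 and Mybl1 had smaller positive values of 0.17, 0.30 and 0.34, and Tbpl1 a value of -0.11. A value below MFN2 WT in both pairs at PD 24 and above it in both at PD 52 was found for 2 of the 9, Rfx3 and Sox30, beside 8.34% of all genes. Rfx2 was lower in MFN2 cKO at PD 24 and higher in P at PD 52, and its L/Z difference at PD 52 turned from -0.04 to 0.04 under a further scaling of the libraries, with which it had the same order. The sum of spermatid markers in MFN2 cKO was 49.5% and 56.5% of MFN2 WT in P and L/Z at PD 24, and 80.2% and 131% at PD 52, and so moved in the same direction as Fhl5 in each of the 4 pairs. Odf2, the largest part of the sum, was at 72.8% and 78.0% in P and L/Z at PD 24. Of the 10 markers, 9 in P and 4 in L/Z were at least 2-fold lower there, beside 6.29% and 7.03% of all genes above 1 FPKM in the pair.

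Age was compared with 2 libraries on each side within a stage. The level at PD 52 was above that at PD 24 in 4 of 4 comparisons for 6 regulators (Crem, Fhl5, Kif17, Rfx3, Sox5 and Tbpl1), beside 24.8% of all genes, and without overlap of the 4 libraries of each age for 2 (Crem and Sox5), beside 6.96%. In L/Z the differences on the log2(FPKM + 1) scale were 2.12 (SE 0.71) for Fhl5, 1.83 (SE 0.34) for Kif17, 1.55 (SE 0.33) for Sox5 and 1.45 (SE 0.38) for Sox30. Crem differed by 0.83, Rfx3 by 0.79 and Rfx2 by 0.75. None passed limma's adjusted threshold, with the lowest adjusted p of 0.0543 for Kif17, and 0% of all genes passed. At an unadjusted p under 0.05 there were 7 of 9, beside 34.4% of all genes, and limma-voom called 3 (Kif17, Sox30 and Sox5), beside 18.1%. In P cells the differences were 2.09 for Fhl5, 1.70 for Kif17, 1.68 for Sox5, 0.67 for Crem, 0.57 for Rfx3 and 0.51 for Sox30. Leaving out 1 library moved the Fhl5 difference by over 1.5 times, down to 1.04 in L/Z without MFN2 cKO at PD 52 and to 1.04 in P without MFN2 cKO at PD 24, and up to 3.2 and 3.13 without the MFN2 WT library of the same stage and age. For P cells with all libraries kept, 0 of 9 passed limma's adjusted threshold, beside 0.128% of all genes. An unadjusted p under 0.05 by limma was found for 5 of 9, beside 18.6%, and limma-voom called 2 (Kif17 and Sox5), beside 2.02%. Mybl1 was the exception in direction, with -0.20 in L/Z and -0.30 in P.

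Between stages, 5 regulators (Crem, Fhl5, Kif17, Rfx3 and Sox5) were higher in L/Z than in P in 4 of 4 comparisons, beside 26.8% of all genes, and Mybl1 was higher in P in 4 of 4, beside 21.3%. At PD 24 the P minus L/Z differences were -1.55 (SE 0.71) for Fhl5, -1.12 (SE 0.34) for Kif17, -0.98 (SE 0.33) for Sox5 and -0.64 (SE 0.21) for Rfx3. None passed limma's adjusted threshold, beside 4.36% of all genes, 4 of 9 had an unadjusted p under 0.05 (Kif17, Sox5 and Rfx3, lower in P, and Mybl1, higher in P), beside 26.4%, and limma-voom called 3 (Kif17, Rfx3 and Sox5), beside 10.9%. At PD 52 they were -1.58 for Fhl5, -1.24 for Kif17, -0.86 for Rfx3, -0.86 for Sox30, -0.84 for Sox5 and -0.56 for Crem. None passed, beside 0.822% of all genes, 4 of 9 had an unadjusted p under 0.05, beside 30.8%, and limma-voom called 0, beside 5.82%. Leaving out 1 library moved the PD 52 differences to between -1.68 and -0.81 for Kif17, -1.30 and -0.39 for Sox5, and -0.77 and -0.35 for Crem. Rfx3 stayed between -0.97 and -0.75. At PD 24 the ranges were -1.46 to -0.78 for Kif17 and -1.33 to -0.63 for Sox5. The stage effect did not differ between ages by a passing test for any of the 9 genes: 0% of all genes passed for that interaction, 0 of 9 regulators had an unadjusted p under 0.05, beside 5.05% of all genes, and limma-voom called 0 of the 9. The spermatid marker sum was likewise higher in L/Z than in P in 4 of 4 comparisons.

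**Figure D4:**
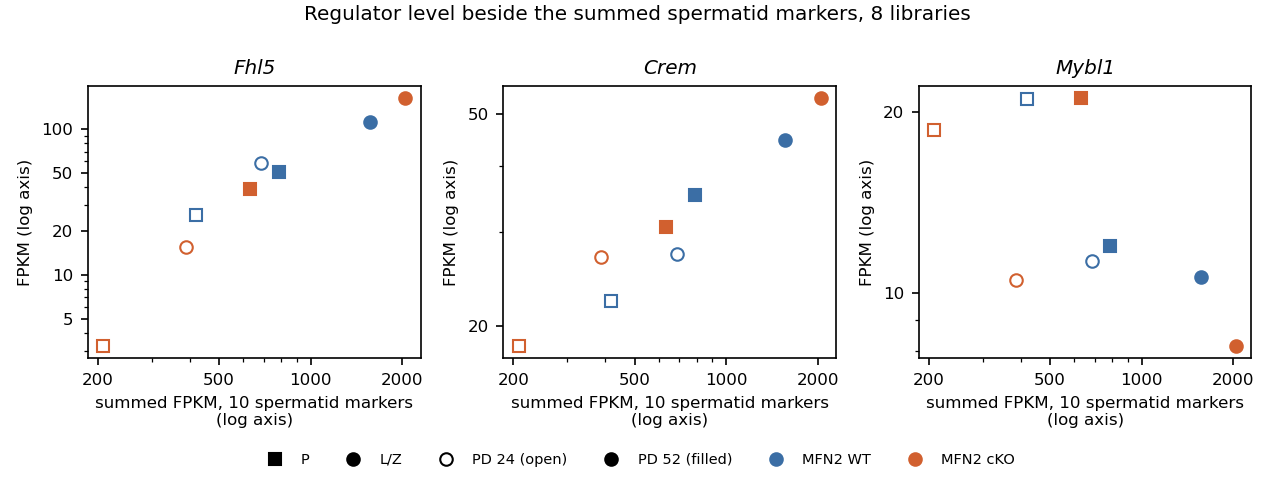
FPKM of Fhl5, Crem and Mybl1 (log axis) against the summed FPKM of the 10 spermatid markers (log axis) in the 8 libraries, with squares for P, circles for L/Z, open symbols for PD 24 and filled symbols for PD 52. The library with the lowest marker sum, MFN2 cKO P at PD 24 (208 FPKM), had the lowest Fhl5 and Crem, the one with the highest, MFN2 cKO L/Z at PD 52 (2045 FPKM), had the highest of both and the lowest Mybl1.

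Relatives of the 9 regulators were read as a list of 18 genes, 17 of which passed the FPKM filter. For the genotype effect 0 of 17 passed limma's adjusted threshold, beside 0.085% of all genes. At an unadjusted p under 0.05 by limma there were 0, beside 6.99%, and limma-voom called 0, beside 0.524%. The median was -0.05 beside -0.04 over all genes. Creb3l4, a spermatid-enriched relative of the CREB family, was at 48.6 and 18.3 FPKM in MFN2 WT and MFN2 cKO P cells at PD 24 and at 98.9 and 95 at PD 52. Rfx1 was at 26.0 and 15.9 FPKM in L/Z cells at PD 24 and at 52.7 and 51.1 at PD 52. Both were lower in MFN2 cKO in both pairs at PD 24, whereas Tbp, the ubiquitous TATA-binding protein, ranged from 9.75 to 15.2 FPKM over the 8 libraries. Sox6 and Rfx4 had the largest stage by age interactions of the list, at -1.02 and -0.92, and neither passed limma's adjusted threshold. Fhl2, a LIM protein known from heart muscle, was higher in L/Z than in P at both ages (P minus L/Z of -2.93 and -2.29, limma adjusted p = 0.0228 and 0.0474), with 41.7 FPKM in MFN2 cKO and 21.2 in MFN2 WT L/Z cells at PD 24. Peritubular myoid markers were higher in the same L/Z fractions, with sums of 46.5 to 160 FPKM in L/Z and 5.11 to 32.5 FPKM in P, and their part in the Fhl2 level was not tested.

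Among 12 partners and other regulators of the late program, 0 passed limma's adjusted threshold for the genotype effect, beside 0.085% of all genes. At an unadjusted p under 0.05 by limma there were 0, beside 6.99%, and limma-voom called 0, beside 0.524%. For the genotype by age interaction 0 passed, beside 0% of all genes, and limma-voom called 0, beside 1.96%. For that interaction 2 had an unadjusted p under 0.05 by limma, beside 12.2%. Tbata, a spermatid protein, had the largest interaction at 1.32, with 27.4 and 10.1 FPKM in MFN2 WT and MFN2 cKO P cells at PD 24 and 63.7 and 61.3 at PD 52. Taf7l, a germ cell TFIID subunit present from spermatogonia on, went the other way at -1.0, with 54.8 and 70.7 FPKM in L/Z cells at PD 24 and 36.9 and 25.3 at PD 52. The sum of 8 spermatogonia markers had the order of Taf7l in those libraries, at 144 and 190 FPKM in L/Z cells at PD 24 and 101 and 48.0 at PD 52. Ybx2, an mRNA-binding protein of germ cells, and Kctd19, a pachytene exit regulator, had stage by age interactions of -0.81 and -0.60, neither past limma's adjusted threshold. Camk4, a kinase that phosphorylates CREM, was at 4.88 FPKM or less in every library.

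The genes most like each regulator over the 8 libraries were named by Pearson's r of log2(FPKM + 1) among 6692 protein-coding genes above 10 FPKM in at least 1 library. They were Trim36 (r = 0.996) and Scp2d1 (r = 0.995) for Fhl5, Fam205a1 (r = 0.998) and Acsbg2 (r = 0.997) for Kif17, 4933434E20Rik (r = 0.998) and Hmox2 (r = 0.997) for Crem, and Triml1 (r = 0.999) and Acot10 (r = 0.997) for Sox5. For Sox30 they were Tex2 (r = 0.995) and 4933427I04Rik (r = 0.991), for Rfx2 Rab11fip5 (r = 0.987) and Wdtc1 (r = 0.986), and for Rfx3 Zmynd15 (r = 0.995) and Mtdh (r = 0.991). For Tbpl1 they were Nlrp14 (r = 0.988) and Mrpl1 (r = 0.978), and for Mybl1 Kat7 (r = 0.990) and Sbno1 (r = 0.988). With 8 libraries that share depth and cell composition, high values arise readily among so many genes, and they are a description only.

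Mfn2 itself was at 62.2 to 97.5 FPKM in the MFN2 WT libraries and 34.3 to 50.1 FPKM in the MFN2 cKO libraries, without overlap. Within the pairs it was at 41.8% to 80.5% of MFN2 WT, highest in P at PD 52. Cre removes exon 6 alone, and a value over the whole gene cannot show that deletion. Markers of other cell types also moved between libraries. The 8 Leydig cell markers summed to 27.9 to 263 FPKM in MFN2 WT and 101 to 648 FPKM in MFN2 cKO, higher in MFN2 cKO in 4 of 4 pairs, and the 6 macrophage markers to 4.94 to 28.9 and 13.3 to 97.8 FPKM, also higher in 4 of 4. The 8 Sertoli cell markers ranged from 21.7 to 666 FPKM and were higher in P than in L/Z at each age and genotype. No marker of these lists was at 0 in any library, the 10 pachytene markers summed to 2657 to 4361 FPKM, and the part of these cells in the levels of the 9 regulators was not tested.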

How the data were processed

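RNA was prepared with a kit that does not mark strand and sequenced as paired reads. The FPKM values were made and deposited by the authors as 1 table of 54532 genes and 8 libraries, normalized by Novomagic software. The submitters' processing notes name CASAVA 1.4, Bowtie 0.12.2 and the builds mm8 and mm9, while the coordinates in the table are those of GENCODE M21 on GRCm38 for all 9 genes. The paper's methods name DESeq2 for the authors' own tests. Whole reads, 14340665 to 20379950 per library, were recovered from FPKM and gene length, with 100% of values within 0.01 of a whole number.

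Genes above 1 FPKM in at least 1 library (21175) were fitted on log2(FPKM + 1) with limma 3.58.1 in R 4.3.3, with the 4 combinations of stage and age as blocks plus genotype (3 residual degrees of freedom), and again with a genotype by age term (2 residual degrees of freedom). The spread is thus what the 4 pairs leave around the mean genotype effect, and may be technical. Benjamini-Hochberg adjusted p-values over all genes were compared with 0.05. A logged fold change understates the change of genes near the pseudocount. Within a pair, genes above 1 FPKM in either library were compared without a test, with exact binomial (Clopper-Pearson) 95% intervals from the reads (SciPy 1.17.1). The fit was tested on simulated data.

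The 9 genes and all gene lists were chosen with earlier results of these data known. The rule for naming took all 9 genes, any gene of the other lists with at least the 3 of largest absolute stage by age interaction or genotype effect, the 2 most similar genes of each regulator, markers as sums, and Mfn2. Ldhc and Ccna1 each stood in 2 lists. The fits were repeated without each library in turn, with limma-voom on the reads, on protein-coding genes alone, with additive terms for stage and age, without the filter on FPKM, after rescaling the libraries by median of ratios, and with 0.1 in place of 1 as the pseudocount. The study's DESeq2 test was not run here.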

Additional observations from a re-analysis of the deposited data

Results flagged for a closer look

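For Sox30 the MFN2 cKO library was below MFN2 WT in both pairs at PD 24 and above it in both pairs at PD 52, and the genotype by age interaction was 1.15 on the log2(FPKM + 1) scale (limma adjusted p = 0.226, 0.105 to 0.984 over the other settings). Rfx3 had the same signs in the 4 pairs, with an interaction of 0.30 (limma adjusted p = 0.691, 0.461 to 0.984 over the other settings). Neither interaction passed the threshold, and the directions alone were shared by 8.34% of all genes.

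Tbpl1 was higher in MFN2 cKO in both L/Z pairs and, as deposited, slightly lower in both P pairs, and the mean difference in L/Z exceeded that in P by 0.45 on the log2(FPKM + 1) scale. That difference between stages was not tested. Both P differences had counting intervals that held 0 and changed sign under a further median-of-ratios scaling, from -0.04 to 0.00017 at PD 24 and from -0.05 to 0.05 at PD 52.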

How the results depend on the processing

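The count of regulators past limma's adjusted threshold was 0 in each of the 7 comparisons and moved in 2 settings. With protein-coding genes only, which leaves the values as they are and tests fewer genes, it was 5 for the age effect in L/Z (Kif17, Sox30, Crem, Sox5 and Rfx3), 1 for the age effect in P (Sox5), 1 for the stage effect at PD 52 (Rfx3) and 1 for the genotype by age interaction (Fhl5). With limma-voom on recovered reads it was 3 for the stage effect at PD 24, 2 for the age effect in P, 3 for the age effect in L/Z and 1 for the genotype by age interaction, and the cause was not tested. It was 0 in every fit without 1 library, where a stage and age with a lone library is assumed to vary like the others. Over all genes, calls in those 2 settings rose from 18 to 70 and 111 for the genotype effect, from 923 to 1704 and 2306 for the stage effect at PD 24, from 174 to 1294 and 1233 at PD 52, from 27 to 291 and 428 for the age effect in P, and from 0 to 2510 and 3829 in L/Z. They were 193 and 414 in place of 0 for the genotype by age interaction, and protein-coding genes alone gave 7 for the stage by age interaction. With a pseudocount of 0.1 the calls were 0, 0, 5, 0 and 5 in the same order up to L/Z, and without any 1 library 0 throughout. Without the FPKM filter they were 0 for the genotype effect, 397 and 2 for the stage effects and 2 for the age effect in P, rescaling the libraries gave 81 for the stage effect at PD 52, and additive stage and age terms gave 3 for the genotype effect.

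Genotype effects near 0 changed sign when single libraries were left out: Crem ranged from -0.16 to 0.014, Rfx3 from -0.026 to 0.088 and Mybl1 from -0.20 to 0.17. The genotype by age interaction likewise ranged from -0.051 to 0.39 for Crem, from -0.38 to 0.16 for Tbpl1 and from -0.21 to 0.89 for Mybl1. For Fhl5 it ranged from 1.89 to 2.79, and its genotype effect from -1.63 to -0.56. The numbers of regulators at least 2-fold lower within a pair stayed at 3, 0 and 0 in L/Z at PD 24 and in P and L/Z at PD 52, and went from 2 to 3 in P at PD 24 with a pseudocount of 0.1 or none, when Sox5 joined. The blocks of stage and age pair the genotypes in the fit, and the labels carry no replicate numbers for another block.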
